A study of Homo sapiens with 7 samples.

Results

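The ZBTB transcription factors were taken as every row of the deposited table whose gene symbol starts with ZBTB, which gave 37 transcripts of 37 symbols among 25918 transcripts in all. The family was chosen by its listed m6A peaks and expression values in an earlier pass over the same table, so these are given as a description and carry no test. One member, ZBTB8OS, carries the name only because it lies beside ZBTB8 on the opposite strand. It encodes archease, a cofactor of the tRNA-splicing ligase, and is no zinc finger protein. The table maps N6-methyladenosine (m6A), a methyl mark on adenosines inside messenger RNA, in untreated cells labelled HepG2, a hepatocellular carcinoma line. It was made by the authors from 4 libraries precipitated with an anti-m6A antibody and 3 input libraries of the same untreated cells, all of poly(A)-selected RNA broken into fragments of about 100 nt. All 7 libraries share 1 set of values, so no level per library, no replicate error and no depth was at hand. The intervals below are 95% Wilson intervals that cover counting only. Those over peaks treat the peaks of 1 transcript as independent and can be too narrow.

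ZBTB proteins pair a BTB domain (also called POZ) near the amino terminus with C2H2 zinc fingers nearer the carboxyl terminus. The BTB domain forms dimers and recruits corepressors or the CUL3 ubiquitin ligase, while the fingers bind DNA. Most of the family act as transcriptional repressors, and several decide cell fates in blood and lymphoid cells or read methylated DNA. m6A is written on mRNA mainly in the sequence context RRACH, where R is A or G and H is A, C or U, and it is known to be dense in long exons and around stop codons.

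By the authors' expression quantile, liver genes were low in the cells labelled HepG2. Of 10 liver markers, ALB, AFP, TTR, SERPINA1 and APOB were at the lowest expression value of the table, 8 were under a quantile of 0.5, the highest was FGB at 0.619, and none had a peak. The ZBTB expression values below are the same kind of quantile, and which libraries it averages is not stated. Whether the low liver markers bear on the ZBTB values was not tested.

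Nearly the whole family was listed with m6A. At least 1 peak was listed in 34 of the 37 transcripts (91.9%, interval 78.7 to 97.2%), against 27.9% of all transcripts and 35% of all coding ones. The authors' expression quantile ranks transcripts between 0 and 1, with 8139 transcripts tied at the lowest value of 0.314, and of coding transcripts above that value 45.8% had a peak. The 3 members without a peak were ZBTB42, a gene of skeletal muscle, ZBTB32, a regulator of lymphocytes, and ZBTB16, the PLZF protein fused to the retinoic acid receptor in acute promyelocytic leukaemia. The 34 marked members carried 79 peaks, a mean of 2.32 ± 1.55 (SD over transcripts, n = 34), against a mean of 1.76 ± 1.18 for all transcripts with a peak (SD, n = 7240). A single peak was listed in 11 members (32.4%), against 55.9% of all transcripts with a peak, and 5 members (14.7%) had 4 or more, against 7.65%.

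Many of these peaks were weak, and the count of marked members depends on them. The authors' peak score, whose scale is not stated and which starts at 2.00, had a median of 2.76 over the 79 ZBTB peaks (quartiles 2.38 and 3.87), against 3.15 over all 12769 peaks (quartiles 2.52 and 3.96). Scores under 2.5 made up 28 of the 79 ZBTB peaks (35.4%), against 24.0% of all peaks. With peaks of a score of at least 3 alone, 18 of the 37 members were marked (48.6%, interval 33.4 to 64.1%), against 19.3% of all transcripts and 31.8% of coding ones above the lowest expression value. At the other end, 6 ZBTB peaks scored 5 or more (7.59%), against 7.24% of all peaks. The highest score of each marked member had a median of 3.60, against 3.55 for all transcripts with a peak.

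**Figure D1:**
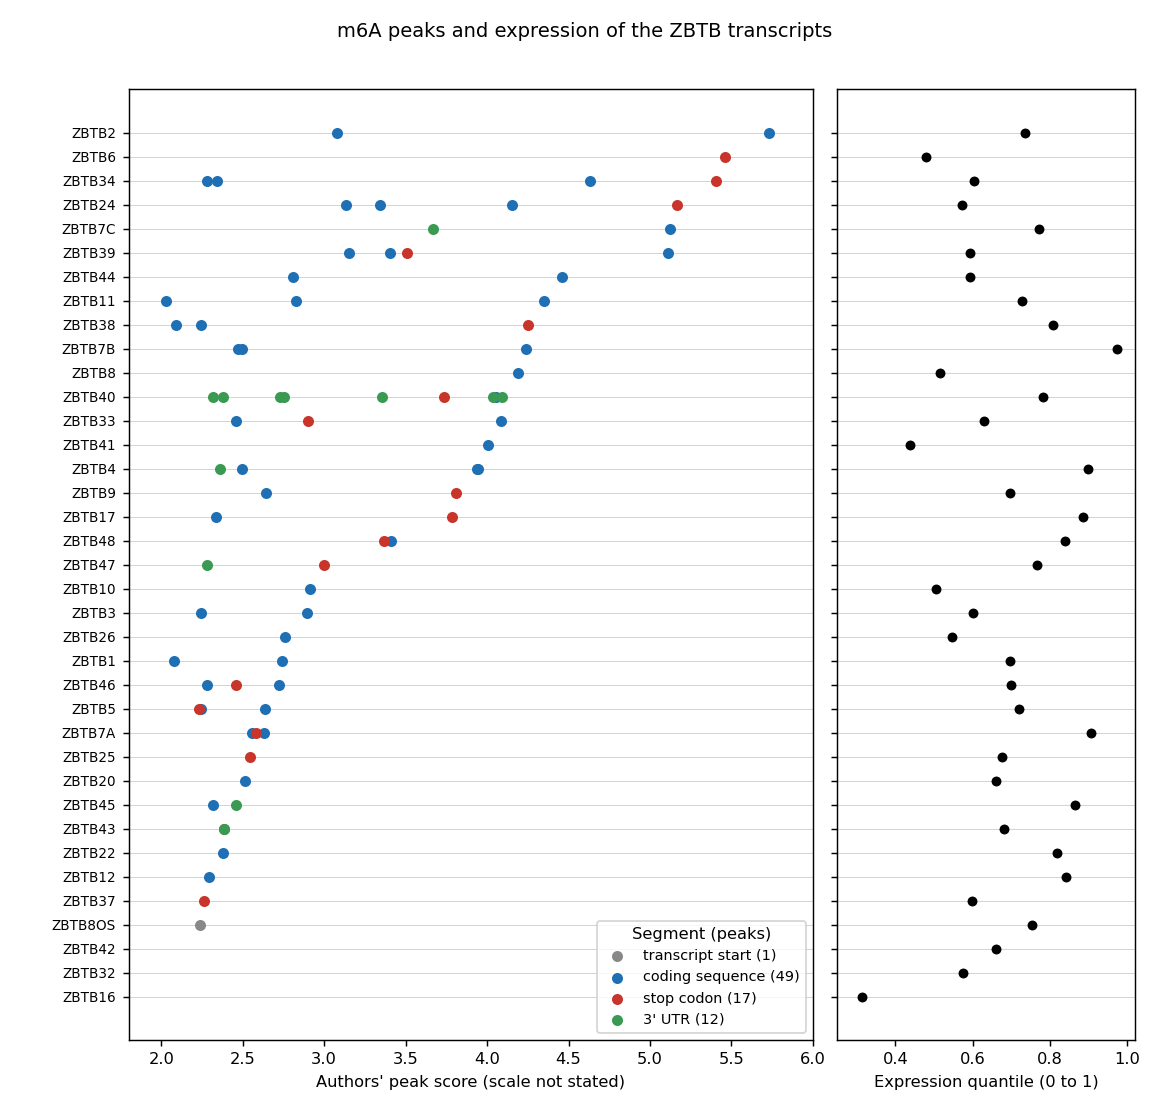
Each row is 1 of the 37 ZBTB transcripts, ordered by its highest peak. The left panel gives the authors' score of each of the 79 peaks, coloured by segment, and the right panel the expression quantile. Scores run up to 5.73 in ZBTB2, coding sequence peaks are found from the top to the foot of the order, and the 3 members without a peak stand at the foot.

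The strongest peaks are shown with the sequence they lie in. Of the 34 marked members, 19 could be matched to a GENCODE release 29 transcript on GRCh38 by strand, span and exons within 50 nt, and they carried 49 of the 79 peaks. The 8 members shown are the matched ones with the highest scores. Each line gives 29 bases of the transcript's sense strand in DNA letters, 5′ to 3′, with the RRACH pentamer nearest the listed peak position in capitals.
ZBTB2: aaacagactctgGAACTctgcacatttga
ZBTB6: aagcacacttcaGGACCacttgaacatac
ZBTB34: gatgtgtacgtgGAACAgaaactagaaaa
ZBTB39: tggctacttccaGAACCtcttcctgaata
ZBTB44: gtgagagcacaaAAACTaccttgccttta
ZBTB7B: cctcaaaggccaGAACTgcctggaggtgc
ZBTB40: tttccgtcctggGAACTgtcagtctggga
ZBTB33: tggcagtctgctGAACTccttgaatgagc
On GRCh38 these lie at chr6:151365771-151365799 on the minus strand for ZBTB2, chr9:122910947-122910975 (minus) for ZBTB6, chr9:126880813-126880841 (plus) for ZBTB34 and chr12:57004734-57004762 (minus) for ZBTB39. The other sites are at chr11:130261031-130261059 (minus) for ZBTB44, chr1:155016409-155016437 (plus) for ZBTB7B, chr1:22528159-22528187 (plus) for ZBTB40 and chrX:120253460-120253488 (plus) for ZBTB33. The middle A of the pentamer lay 2 nt after the listed position in ZBTB2 and ZBTB34 and 8 nt after it in ZBTB6. It lay 38 nt before the position in ZBTB7B, which was the farthest of the 8. The matched transcripts could differ from the listed ones in span or exon length by up to 50 nt. Offsets of a few nt, and the order of the offsets, are thus approximate. Further RRACH pentamers were found within 50 nt of the peak in ZBTB2 (5 in all), ZBTB6, ZBTB34 and ZBTB33 (3 each), so that the pentamer printed is not shown to be the methylated one.

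GGACU, the pentamer most often tied to m6A, was found within 50 nt of 13 of the 49 matched peaks, in 9 members. The 8 with the highest peak scores are printed because they place that pentamer within 50 nt of a listed peak, with it in capitals and written with T.
ZBTB33 at 295: caacgtggccatGGACTcttctgtgatgt
ZBTB4 at 2486: gcaccgatgcggGGACTgtgcccagacct
ZBTB4 at 2025: cacgggctggaaGGACTctgacttacaca
ZBTB9 at 1685: ccactgcccactGGACTtacaagtgactg
ZBTB40 at 3880: ggtgactgtggaGGACTtgctggatggca
ZBTB48 at 2187: tgctgtccccgaGGACTgtgacacatagc
ZBTB40 at 6467: tgtgccgagagtGGACTggctgccggggc
ZBTB39 at 603: ccgaggtggtggGGACTaccttggtgctg
The number after each name is the listed peak position, in nt from the transcript's 5′ end. In ZBTB40 the middle A lay 1 nt after the listed position 3880, and in ZBTB9 it lay 6 nt before the position. The farthest of the 8 was that of ZBTB4 at 2486, where it lay 43 nt after the position. For the same reason as above, these offsets are approximate. On GRCh38 the sites are at chrX:120253488-120253516 (plus) for ZBTB33, chr17:7462779-7462807 and chr17:7463269-7463297 (minus) for ZBTB4 and chr6:33456497-33456525 (plus) for ZBTB9. Those of ZBTB40 are at chr1:22526336-22526364 and chr1:22528907-22528935 (plus), that of ZBTB48 at chr1:6589185-6589213 (plus) and that of ZBTB39 at chr12:57004413-57004441 (minus).

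RRACH as a whole was near most ZBTB peaks. The search took every pentamer that RRACH allows, on the sense strand only, and GGACU is one of them. In the 5 members matched exactly, 10 of 11 peaks had one within 50 nt (90.9%, interval 62.3 to 98.4%), against 7 of 11 control windows placed 300 nt from the peak. In the 19 members matched within 50 nt, 44 of 49 peaks did (89.8%, interval 78.2 to 95.6%), against 61.2% of such control windows (interval 47.2 to 73.6%). Over all 6089 peaks matched in that way the shares were 89.3% at peaks and 74.9% in the control windows. GGACU was within 50 nt of 26.5% of the ZBTB peaks and 6.12% of their control windows, against 27.4% and 9.75% for all peaks matched within 50 nt. In the exactly matched members it was near 2 of 11 peaks and 2 of 11 control windows (18.2% each), so that no excess at peaks was seen there, against 30.3% and 10.5% for all 1243 exactly matched peaks. The 5 ZBTB peaks without RRACH all lay in the coding sequence, in ZBTB41, ZBTB5, ZBTB7B and ZBTB34, where 2 of the 4 peaks lacked it, at positions 648 and 834.

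The family's expression was close to that of other coding transcripts above the lowest value. ZBTB members had a median quantile of 0.696 (quartiles 0.594 and 0.782), against 0.693 for coding transcripts above the lowest value and 0.591 for all coding ones. The most expressed member was ZBTB7B (0.973), known as ThPOK, which commits T cells to the helper lineage. Next came ZBTB7A (0.907), a repressor of fetal globin genes, ZBTB4 (0.898), a reader of methylated CpG, and ZBTB17 (0.886), the MYC partner MIZ1. ZBTB16 was the only member at the lowest value.

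Within each expression range the marked share of ZBTB transcripts was above that of other coding transcripts. At quantiles of 0.5 to 0.6 a peak was listed in 7 of 8 members (87.5%), against 28.2% of other coding transcripts, and at 0.6 to 0.7 in 9 of 10 (90.0%), against 51.9%. All 7 members at 0.7 to 0.8 were marked, against 65.0%, and all 7 at 0.8 to 0.9, against 71.4%. Above the lowest value but under 0.5 the only members were ZBTB6 (0.478) and ZBTB41 (0.438), and both had a peak, against 2.00% of other coding transcripts in that range. Weighted to the expression of the 36 members above the lowest value, 51.2% of other coding transcripts had a peak, against 94.4% of those members. With scores of at least 3 the weighted share was 36.5%, against 50% of the 36 members. Each range holds few members, and no test was run on these counts because the family was singled out with its values known.

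**Figure D2:**
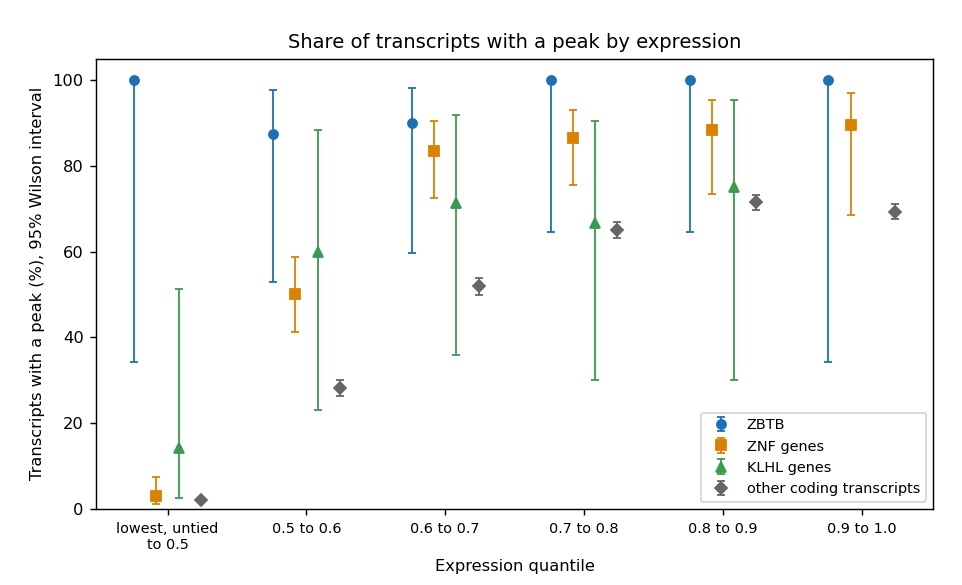
Share of transcripts with at least 1 peak (vertical axis, percent, with 95% Wilson intervals) in 6 ranges of the authors' expression quantile (horizontal axis). The ZBTB points lie between 87.5% and 100%, while other coding transcripts climb with expression to 71.4% at quantiles of 0.8 to 0.9.

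ZBTB transcripts were also long. With the longest GENCODE coding transcript of the gene as a stand-in for length, the 36 members above the lowest expression value had a median of 5073.5 nt (quartiles 3062 and 6691.75), against 3343 nt for other coding transcripts (quartiles 2151.5 and 5164). Of members from 4000 to under 6000 nt, 12 of 12 had a peak, against 54.3% of other coding transcripts, and at 6000 nt and over 12 of 12 did, against 57.1%. From 2000 to under 4000 nt it was 8 of 10, against 46.4%, and the members without a peak there were ZBTB42 and ZBTB32. For transcripts of 4000 to under 6000 nt and quantiles from 0.5 to under 0.7, 6 of 6 members were marked, against 51.0%. At 6000 nt and over in the same expression range it was 8 of 8, against 58.3%. From 2000 to under 4000 nt in that range only 2 of 4 members were marked (interval 15.0 to 85.0%), against 37.0%. These 4 members are too few to tell the shares apart. At quantiles of 0.7 and over, 2 of 2 members under 2000 nt were marked, against 51.7%, and 6 of 6 from 2000 to under 4000 nt, against 70.6%. It was 5 of 5 from 4000 to under 6000 nt, against 76.85%, and 3 of 3 at 6000 nt and over, against 83.8%. At these quantiles the shares of other coding transcripts lay inside the wide ZBTB intervals.

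The marked share was also set beside that of gene families of related build. Genes named ZNF, which mostly encode C2H2 zinc finger proteins, had a peak in 219 of 510 transcripts (42.9%, interval 38.7 to 47.3%), or in 219 of 435 above the lowest expression value (50.3%). KLHL genes, whose proteins share the BTB domain but carry Kelch repeats in place of fingers, had one in 16 of 34 (47.1%, interval 31.5 to 63.3%). At quantiles of 0.5 to 0.6 it was 87.5% of ZBTB members against 50% of ZNF transcripts, and at 0.6 to 0.7 it was 90.0% against 83.3%. At 0.7 to 0.8, 0.8 to 0.9 and 0.9 to 1.0 it was 100% each time, against 86.4%, 88.2% and 89.5%. From 0.6 up the ZNF shares lay inside the ZBTB intervals, which were wide. KLHL shares in the 4 ranges from 0.5 to 0.9 were 60%, 71.4%, 66.7% and 75%, of 4 to 7 transcripts each. The median quantile was 0.696 for ZBTB members and 0.538 for ZNF transcripts. In peaks per transcript the families were closer: beside the mean of 2.32 for ZBTB members, KLHL genes with a peak had a mean of 2.31 (n = 16), 12.5% with a single peak and 18.8% with 4 or more, and ZNF genes a mean of 1.98 (n = 219) and 12.8% with 4 or more.

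ZBTB peaks lay mainly in the coding sequence. By the authors' annotation 49 of 79 were there (62.0%, interval 51.0 to 71.9%), against 36.6% of the 12424 peaks in all coding transcripts. A further 17 were around the stop codon (21.5%, interval 13.9 to 31.8%), against 27.6% of all peaks, and 12 in the 3′ UTR (15.2%, interval 8.91 to 24.7%), against 20.5%. None was in the inner 5′ UTR, and the 1 peak at the transcript start belonged to ZBTB8OS. Start peaks made up 1.27% of ZBTB peaks, against 12.5% of all peaks. ZNF and KLHL genes had 58.3% and 56.8% of their peaks in the coding sequence and 0.922% and 2.70% at the transcript start.

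**Figure D3:**
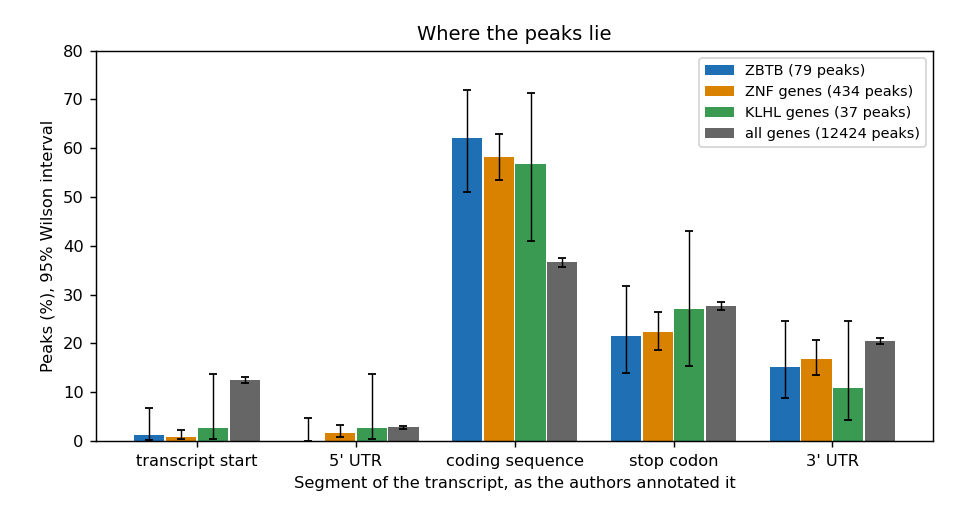
Bars give the share of peaks (percent, with 95% Wilson intervals) in each segment of the transcript for ZBTB, ZNF and KLHL genes and for all genes of the table, ZBTB included. The coding sequence holds 62.0% of ZBTB peaks and 36.6% of all peaks.

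By member, 28 of the 34 had a coding sequence peak, 17 a stop codon peak and 12 both. All peaks lay in the coding sequence in 13 members. These member counts were not made for all genes. The highest peak was in the coding sequence in 21 members (61.8%) and around the stop codon in 9 (26.5%). It was in the 3′ UTR in 3 (8.82%) and at the transcript start in 1 (2.94%). Over all genes, with 1 highest peak per symbol, these shares were 29.8%, 35.3%, 17.6% and 14.8%. The coding sequence peaks had a median score of 2.76, the stop codon peaks 3.37 and the 3′ UTR peaks 2.59, against 3.14, 3.45 and 3.22 for all genes.

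The coding sequence peaks sat in long exons. Their exons had a median length of 2514 nt (quartiles 1160 and 4525), against 1335 nt for all coding sequence peaks of the table. Exons of 400 nt and over held 48 of the 49 (98.0%), against 91.4% of all coding sequence peaks, a difference of few peaks. At 1000 nt and over it was 40 of 49 (81.6%, interval 68.6 to 90.0%), against 60.3%, and at 2000 nt and over 27 of 49 (55.1%, interval 41.3 to 68.1%), against 34.7%. ZNF genes had exons as long or longer by these shares, with a median of 2341 nt, 98.4% of 253 coding sequence peaks at 400 nt and over, 88.5% at 1000 nt and over and 67.2% at 2000 nt and over. KLHL genes had shorter ones, with a median of 1073 nt and 52.4% of 21 peaks at 1000 nt and over. Long exons were thus shared with the ZNF genes. The only exon under 400 nt was exon 9 of ZBTB17, of 301 nt. Exon 2 alone held 29 of the 49 (59.2%, interval 45.2 to 71.8%), against 20.2% for ZNF genes, 14.3% for KLHL genes and 19.8% of all coding sequence peaks. ZBTB34, ZBTB39 and ZBTB33, for example, had every listed peak in an exon 2 of 6488, 6128 and 4983 nt. Among the 23 members with 2 or more peaks, 12 had them all in a single exon. That count was not made for all genes or for the ZNF and KLHL genes, so it is not shown to be particular to the family. Neighbouring peaks of a member were from 149 to 3323 nt apart, with a median of 662 nt over 45 gaps.

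**Figure D4:**
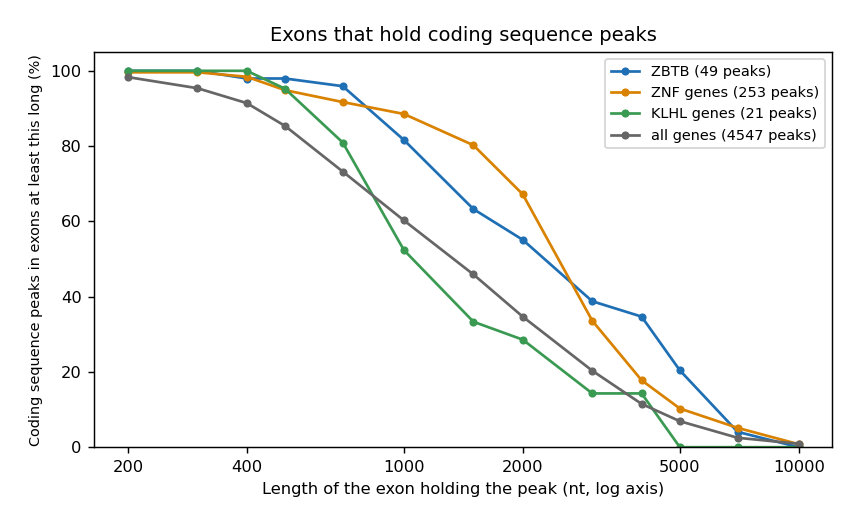
For coding sequence peaks, the curve gives the share (percent) lying in exons at least as long as the value on the horizontal log axis, in nt, for ZBTB, ZNF and KLHL genes and for all genes. At 2000 nt the ZBTB curve stands at 55.1% and that of all genes at 34.7%.

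Along the coding sequence, the peaks fell in each part of the protein's code. C2H2 fingers were located in the 19 matched members by the spacing of cysteine and histidine codons, which finds only fingers of the usual spacing, and 16 members with 2 or more (median 4, up to 14 in ZBTB41) were used. The stretch before the first finger, which holds the BTB domain and the linker, had 18 of the 34 peaks inside these coding sequences (52.9%) on 57.1% of their length. The finger array, taken as the span from the first to the last finger found, had 7 (20.6%) on 31.5% of the length. That span includes any other sequence between the fingers, so a peak in it need not lie in a finger. The tail after the last finger had 9 (26.5%) on 11.5% of the length, 6 of them annotated as stop codon peaks. Median scores were 2.85 before the array, 3.51 within it and 3.79 after it. By terciles of the coding sequence, 10, 13 and 17 of 40 ZBTB peaks lay in the first, middle and last, against 33.2%, 26.2% and 40.6% of 3196 peaks of all matched genes.

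**Figure D5:**
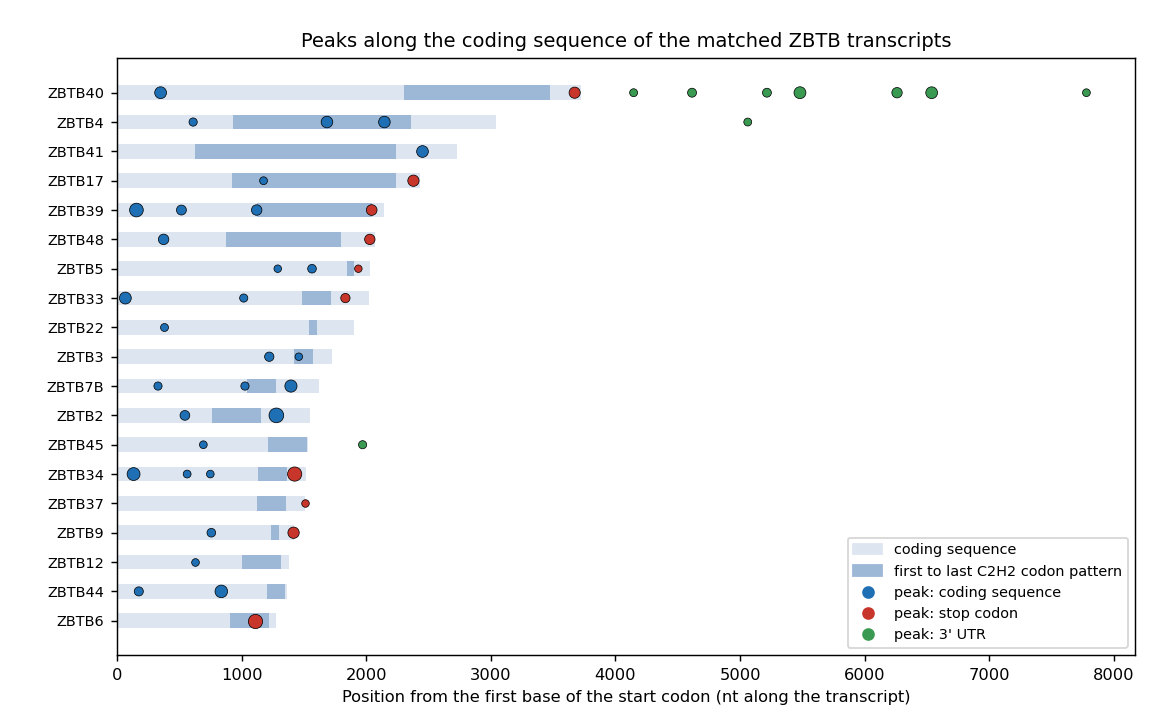
Coding sequences of the 19 matched ZBTB transcripts drawn to scale from the start codon, in nt, with the stretch from the first to the last C2H2 codon pattern shaded darker. Dots are peaks, larger with a higher score and coloured by segment, and ZBTB40 shows 7 of them past the stop codon.

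Several members are readers of methylated DNA or regulators of cell cycle arrest. ZBTB2, described as a repressor in the p53 pathway, had the highest score of the family at an expression quantile of 0.736 (chromosome 6, 151726943 to 151754370, minus strand, in the table's own build, which is not given in the sources used here). Its peaks scored 5.73 at position 1420 and 3.08 at position 686, both in the coding part of exon 3 (2778 nt). The stronger one lay past the last finger found by the codon search. ZBTB5, a repressor of the cell cycle inhibitor p21, had 3 weak peaks of 2.64, 2.24 and 2.23, all below the weaker peak of ZBTB2.

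Among the methyl-DNA binders, ZBTB33, known as Kaiso, had peaks of 4.09, 2.46 and 2.90 at positions 295, 1245 and 2061 of exon 2 (4983 nt). The strongest stood 67 nt into the coding sequence of the matched transcript, within 50 nt of the GGACU site printed above. ZBTB4 (chromosome 17, 7303409 to 7328292, minus strand) had 4 peaks, 3.95 at position 2486 and 3.94 at 2025 in the coding part of exon 4 (4525 nt), 2.49 at 951 in the coding part of exon 3 (1100 nt) and 2.36 at 5402 of exon 4, in the 3′ UTR. The 2 stronger ones lay between the first and last of the 5 fingers found in it. Those fingers span nt 931 to 2361 of the coding sequence, with other sequence between them. Whether either peak falls in a finger was not tested. ZBTB38 (chromosome 3, 142525745 to 142651322, plus strand; quantile 0.807) had its strongest peak around the stop codon (4.25 at position 4462) and weak ones of 2.24 at 2507 and 2.09 at 2358 in the coding sequence, all in exon 8 (7402 nt), the longest exon with a ZBTB peak. In the 3 genes the strongest peak was thus near the coding start, between the first and last finger, and around the stop codon.

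ZBTB24, mutated in a syndrome of immunodeficiency and centromere instability, was among the members with the highest scores and the most peaks. Its expression quantile was only 0.574 (chromosome 6, 109890412 to 109911133, minus strand). Of its 4 peaks the strongest was around the stop codon (5.16 at position 2282), followed by 4.15 at 1939 in the same exon 7 (4059 nt). The peak at 1939 and the others, 3.34 at 1021 and 3.14 at 263 in exon 2 (980 nt), were in the coding sequence, and all 4 scores were above 3. ZBTB39 (chromosome 12, 55678885 to 55686497, minus strand; quantile 0.594) was alike in having 4 peaks above 3, all in exon 2 (6128 nt). Its highest, 5.11, was at position 242, in the first part of the coding sequence, and 3.51 was listed at 2130 by the stop codon, with 3.40 at 1207 and 3.15 at 603 between them in the coding sequence. ZBTB34 (chromosome 9, 128662765 to 128687977, plus strand; quantile 0.604) had a strong peak at either end of its coding sequence, 4.63 at position 218 and 5.40 at 1511, and weak ones of 2.34 at 648 and 2.28 at 834 between them, all in exon 2. The peak at 1511 was annotated around the stop codon and the other 3 in the coding sequence.

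ZBTB40 had the most peaks of the family, 9 in all (chromosome 1, 22650931 to 22730237, plus strand; quantile 0.782). Of these, 8 lay in the last exon, exon 18 of 4956 nt, and 7 of those were in the 3′ UTR, from position 4353 to 7987. In order along the transcript, the 3′ UTR peaks scored 2.38 at 4353, 2.75 at 4822, 2.73 at 5423, 4.09 at 5688, 3.35 at 6467, 4.03 at 6745 and 2.32 at 7987. The stop codon peak at 3880 scored 3.74. The remaining peak, 4.06 at position 557, was in the coding part of exon 2 (766 nt). ZBTB40 thus supplied 7 of the 12 peaks that the family had in 3′ UTRs. The others were in ZBTB4, ZBTB7C, ZBTB45, ZBTB47 and ZBTB43, with 1 each.

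ZBTB6 (chromosome 9, 124710156 to 124715430, minus strand) carried its score in a single peak, 5.46 at position 1193 of exon 2 (4026 nt). That peak was annotated around the stop codon and lay within the finger array. Its expression quantile of 0.478 was among the lowest of the marked members, above only that of ZBTB41 (0.438), which had 1 peak of 4.0 in exon 10 (6331 nt). ZBTB8 (0.515) also had 1 peak, of 4.19, in the coding part of exon 5 (5855 nt). ZBTB10, a repressor of SP transcription factor genes, had 1 of 2.91 at a quantile of 0.504. Of the 11 members under a quantile of 0.6, 9 had a peak.

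The ZBTB7 genes differed among themselves. ZBTB7C (chromosome 18, 43807743 to 43821492, minus strand; quantile 0.773) had 5.13 at position 887 in the coding part of exon 1 (1224 nt) and 3.67 at 3540 in the 3′ UTR part of exon 2 (2538 nt). ZBTB7B (chromosome 1, 153241736 to 153257623, plus strand, quantile 0.973) had 4.24 at position 1533 of exon 4 (2304 nt), past the last finger found. It also had 2.49 at 1164 and 2.47 at 466 in exon 3 (1160 nt), and all these peaks were in the coding sequence. ZBTB7A had 3 peaks within a narrow range, 2.63, 2.58 and 2.56, although it was expressed above ZBTB7C. Across the 34 marked members the highest score and the expression quantile had a Spearman rho of -0.23, and the highest score and the number of peaks 0.46, against -0.13 and 0.35 over 6990 marked coding transcripts. These are descriptions of genes that share the same libraries.

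ZBTB11, needed for neutrophil development in zebrafish, had 3 coding peaks in 3 different exons, 4.35 at position 3056 of exon 11 (2245 nt), 2.83 at 1244 of exon 4 (845 nt) and 2.03 at 327 of exon 1 (540 nt) (chromosome 3, 102850973 to 102878678, minus strand; quantile 0.727). The last was the lowest score of the family. A row of the table on the other strand overlaps ZBTB11 by 699 nt and has 1 peak of its own, and the labels do not state that the libraries kept the strand. ZBTB44 (chromosome 11, 129601784 to 129689817, minus strand; quantile 0.594) had 4.46 at position 1205 and 2.81 at 543, both in the coding part of exon 2 (1074 nt). It is 1 of 5 members overlapped by an opposite row, and the rows opposite ZBTB44, ZBTB4, ZBTB20 and ZBTB43 had no peak.

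The other members with a peak had highest scores of 3.81 at most. ZBTB9 reached 3.81 and ZBTB17 3.79, both around the stop codon, and ZBTB48, a telomere-binding protein, had 3.41 in the coding sequence and 3.37 around the stop codon. All 3 had 2 peaks. Those with a highest score under 3 numbered 16, from ZBTB47 (3.00 when rounded) down to ZBTB8OS (2.24 at position 115 of exon 1, of 152 nt, at a quantile of 0.753). They included ZBTB20 (2.51), a repressor of alpha-fetoprotein in mouse liver, ZBTB46 (2.72), a marker of classical dendritic cells, and ZBTB1 (2.74), needed for lymphocyte development in mice. The rest were ZBTB3 (2.89), ZBTB26 (2.76), ZBTB25 (2.54), ZBTB45 (2.46), ZBTB43 (2.38), ZBTB22 (2.38), ZBTB12 (2.29) and ZBTB37 (2.26), beside ZBTB5, ZBTB7A and ZBTB10 described above. Of the members without a peak, ZBTB42 had an expression quantile of 0.659 and ZBTB32 of 0.576.

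Some members are close neighbours in the genome. ZBTB25 and ZBTB1 on chromosome 14 start 737 nt apart on opposite strands, ZBTB6 and ZBTB26 on chromosome 9 are 4768 nt apart on the same strand and ZBTB43 and ZBTB34, also on chromosome 9, 25446 nt apart. The highest scores were 2.54 in ZBTB25 and 2.74 in ZBTB1, 5.46 in ZBTB6 and 2.76 in ZBTB26, and 5.40 in ZBTB34 and 2.38 in ZBTB43, so only the first of these pairs was alike in score.

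Further BTB zinc finger genes stand in the table under other names. Such genes were found under 12 symbols, all above the lowest expression value. Of these 12, 7 had a peak, against 91.9% of the ZBTB-named genes and 45.8% of coding transcripts above the lowest value. ZNF295, now ZBTB21, had 6 peaks with a highest score of 5.88. ZFP161 (now ZBTB14) reached 5.07, ZNF238 (now ZBTB18) 4.71 and GZF1 4.54. No peak was listed in BCL6, the repressor of germinal centre B cells, PATZ1 or ZNF131, at quantiles of 0.857, 0.875 and 0.867, nor in BCL6B and ZNF509 (now ZBTB49). Of their 15 peaks 11 were in the coding sequence, 5 of these in ZNF295 alone, against 36.6% of all peaks. Adding the 4 symbols whose current name starts with ZBTB gave 37 of 41 marked (90.2%), of which 34 are the ZBTB-named ones.

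Cofactors of BTB zinc finger proteins were marked in 9 of 11 cases, at quantiles from 0.718 up, where 65.0 to 71.4% of other coding transcripts had a peak in the ranges from 0.7 to 1.0, so that the count is near that background. The corepressor scaffold SIN3A reached 5.74 in the 3′ UTR, TBL1X 4.74 and NCOR1 4.61 around the stop codon, and CUL3, the ligase scaffold that BTB domains bind, 4.40 around the stop codon. GPS2, a subunit of the NCOR complex, and RBX1, the RING partner of CUL3, had none. Of their 24 peaks 10 were in the coding sequence, a share near the 36.6% of all peaks.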

How the data were processed

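The deposited file was 1 table for 4 immunoprecipitated and 3 input libraries, grouped by their titles. Per the file headers, the authors gave each transcript a mean expression quantile, which is a fraction from 0 to 1, and each peak a position, exon number, exon length, segment and score. The deposited score has no stated scale and was not below 2.00. Not given in the sources used here were the aligner, the peak caller and the genome build. All coordinates of whole genes are the table's own. No column belonged to 1 library, so depth is unknown and no test was possible between libraries.

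Members were the rows with a symbol starting ZBTB, and members and lists were chosen with earlier results of these data known, so values are set beside those of the whole table and no test was run. All members are named, with full values for the 10 highest scores, the 5 with most peaks and those with a start peak. Coding transcripts with peaks were matched to GENCODE release 29 by symbol, strand, span and peak exons, exactly or, as an alternative chosen after seeing the data, within 50 nt. Control windows 300 nt away were not cleared of other peaks. The GGACU sites and the codon search for fingers were also chosen after seeing the data. Motif and finger searches were tested on simulated data. Python 3.11.15, pandas 2.3.3 and statsmodels 0.14.6 were used.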

Additional observations from a re-analysis of the deposited data

How the results depend on the processing

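No paired analysis was possible because no deposited column belongs to a single library, and for the same reason no library could be left out. The share of marked ZBTB transcripts (91.9%) was 94.4%, 91.9%, 90.2% and 91.7% above the lowest quantile, per symbol, with older symbols and without ZBTB8OS, but 48.6% with scores of at least 3. The means and medians of peaks and scores, and the shares of peaks in the coding sequence and around the stop codon, moved by less than their spread or interval under every alternative run. The share of coding sequence peaks in exons of 400 nt and over (48 of 49 peaks) was 100% with a limit of 200 nt, 81.6% with 1000 nt and 100% with scores of at least 3 (20 peaks). In exactly matched members, RRACH within 50 nt (90.9% of 11 peaks) became 100% within 100 nt, where all 11 control windows held it too, and 100% for DRACH, where D is A, G or U, against 63.6% of control windows. GGACU was near 18.2% of these 11 peaks and of their control windows, and near 26.5% of the 49 peaks matched within 50 nt, against 6.12% of theirs. Fragments of about 100 nt limit the resolution of positions, and with the depth unknown a transcript without a listed peak is not shown to lack m6A.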
